A study of Nothobranchius furzeri with 8 samples.

Results

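The 23 genes described here were those whose reads stood more than 2-fold higher in the lowest wild brain than in the highest captive brain of the turquoise killifish *Nothobranchius furzeri*, an annual fish of temporary savannah ponds. They were taken from 26739 genes in the table of RPM values (RPM, the reads of a gene per 1000000 reads counted to genes in that library). A gene was a member if its mean over the 4 wild brains was at least 1 RPM and its lowest wild value was more than 2 times its highest captive value. A total of 29 genes met this rule, and 6 of them, *EGR2*, *FOS*, *NPAS4*, *DNAJB5*, *SERPINH1* and 1 copy of *JUNB*, were left out by their identifiers. Membership was therefore set by the wild and captive values themselves. The differences between the groups given below for members are a description, without a test.

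The wild fish were 4 males of population A41 at 39 days post hatching (dph), netted in their pond, with brains placed in RNAlater after dissection and frozen later in the laboratory. The captive fish were 4 males of the strain MZM-0410 at 35 dph in the labels, bred in an aquarium facility, with brains frozen at dissection. Neither group carried a transgene or received a treatment. RNAseq of each whole brain gave 13923243 to 14541119 counted reads per wild library and 11814586 to 14393377 per captive library. Wild fish are called by their label numbers 3, 5, 7 and 11, and captive fish are numbered 1 to 4 in the order of their labels, which run from MZM_0410_124 to MZM_0410_127. The paper states that captive fish were fasted when killed, while wild fish were dissected directly after capture. The wild or captive origin cannot be told apart from population, feeding, capture, storage of the tissue, the small difference in age and RNA integrity. The authors recorded RNA integrity as lower in every wild fish.

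Few of these genes could be given a symbol, which here means a human gene name in the study's supplement. Only 3 of the 23 (13.0%) had such a symbol, against 41.2% of the 17533 genes with a wild mean of at least 1 RPM. Genes without it are called unnamed, which does not say that they have no name elsewhere. The 6 genes left out all have a symbol, so that leaving them out lowered the share among the 23. The 3 named members are *NR4A1* (Nfu_g_1_001848), *ATF3* (Nfu_g_1_018748) and *SIMC1* (Nfu_g_1_004548). *NR4A1* and *ATF3* belong to the immediate early genes, which cells transcribe within minutes of a stimulus without first making new protein. In the brain such genes are widely used as a sign of recent neuronal firing, and several of them also answer to injury, heat and other stress. NR4A1 is an orphan nuclear receptor that binds DNA as a transcription factor. ATF3 is a transcription factor of the basic leucine zipper type that is induced by stress, downstream of ATF4 in the amino acid response and after damage to axons. SIMC1 is less well studied, and in human cells it binds the small modifier protein SUMO and works with the complex of SMC5 and SMC6 that acts on chromatin.

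*NR4A1* had 4.67, 5.76, 4.54 and 4.51 RPM in wild fish 3, 5, 7 and 11, against 0.42, 1.12, 1.04 and 0.83 RPM in captive fish 1 to 4. The wild values lay close together and captive fish 1 was the lowest of all. The means were 4.87 ± 0.60 RPM in wild and 0.86 ± 0.31 RPM in captive fish (SD, n = 4 each), a log2 fold change of 2.46 (SE 0.27) in the fit of all genes. These levels rest on 65, 81, 66 and 65 reads in the wild libraries and on 5, 15, 13 and 12 reads in the captive libraries, so that the captive values carry a large counting error. Within the wild group the spread of *NR4A1* was small, with a coefficient of variation (CV, SD over mean) of 12.3%, about that of read counting alone.

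*ATF3* had 7.11, 2.77, 4.68 and 2.64 RPM in wild fish 3, 5, 7 and 11, against 1.02, 1.05, 0.96 and 0.76 RPM in captive fish 1 to 4. Here the captive fish were alike and the wild fish were not, with wild fish 3 at 2.70 times the level of wild fish 11. The mean was 4.30 ± 2.09 RPM in wild and 0.95 ± 0.13 RPM in captive fish (SD, n = 4 each), and the log2 fold change was 2.14 (SE 0.36). Leaving out wild fish 3 brought it to 1.80. The wild CV of 48.6% was 3.80 times the CV that counting would give at these 38 to 99 reads.

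*SIMC1* was by far the most abundant of the 3 named genes in RPM and the second of all 23. It had 55.9, 120.7, 48.7 and 51.6 RPM in wild fish 3, 5, 7 and 11, against 18.7, 16.7, 20.7 and 19.2 RPM in captive fish 1 to 4. Wild fish 5 stood far above the other 3 wild fish, which were within 8 RPM of each other. The log2 fold change of 1.85 (SE 0.28) became 1.44 without wild fish 5. That fish held the highest wild value, so leaving it out could not take *SIMC1* out of the rule. Per length of transcript the wild level was 21.9 ± 10.9 RPKM (RPM per kilobase of transcript, SD, n = 4) for *SIMC1*, against 3.16 ± 1.54 RPKM for *ATF3* and 1.19 ± 0.15 RPKM for *NR4A1*. No other gene of the table carried the symbol of any of these 3, so that no second copy could be set beside them. Only 7368 of the 26739 genes have a symbol, so a copy among the others could not be looked for.

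**Figure D1:**
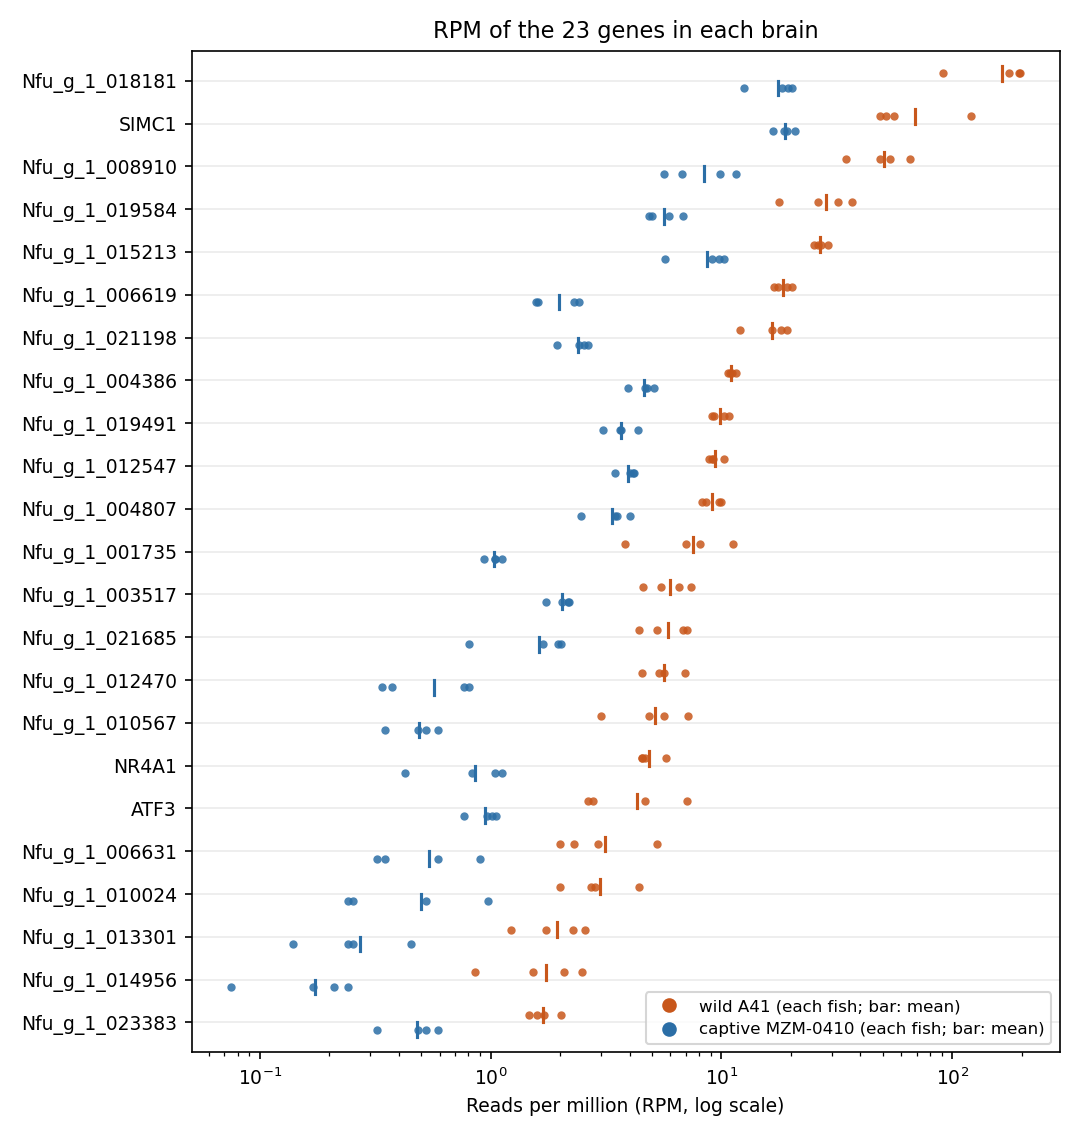
RPM (log axis) of the 23 genes in each brain, with wild A41 fish above captive MZM-0410 fish in each row, 1 point for each of 4 fish and a bar at the mean, and rows ordered by wild mean. Levels span 1.69 to 165 RPM in wild means, and the wild and captive points are apart in every row because the rule asks for it.

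The gene with the highest reads was Nfu_g_1_018181, a gene without a symbol and with a transcript of 708 bases. It had 197, 176, 91.1 and 195 RPM in wild fish 3, 5, 7 and 11, against 12.5, 19.3, 20.3 and 18.2 RPM in captive fish 1 to 4. Wild fish 7 had less than the other wild fish, and still 4.50 times the highest captive value. The log2 fold change was 3.19 (SE 0.25), and the RPKM of this gene was the highest of the 23, with 233 ± 70.6 in wild and 24.8 ± 4.90 in captive fish (SD, n = 4 each). Next among the unnamed genes came Nfu_g_1_008910, whose transcript measures 462 bases. It had 34.5, 65.6, 53.9 and 48.7 RPM in wild fish 3, 5, 7 and 11, against 6.77, 11.5, 9.81 and 5.63 RPM in captive fish 1 to 4, a log2 fold change of 2.56 (SE 0.25). What the proteins of these unnamed genes do, or whether each of them makes a protein, is not given in the sources used here.

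The widest gap of the 23 belonged to Nfu_g_1_006619. Its 16.8, 17.6, 19.2 and 20.2 RPM in wild fish 3, 5, 7 and 11 stood against 2.29, 1.57, 2.41 and 1.6 RPM in captive fish 1 to 4, with the lowest wild value 6.97 times the highest captive value. This gene was at once strongly different between the groups and even within the wild group, where its CV was 8.33%. Another wide gap was found in Nfu_g_1_012470, with 6.97, 5.62, 4.54 and 5.35 RPM in wild fish 3, 5, 7 and 11, against 0.34, 0.37, 0.80 and 0.76 RPM in captive fish 1 to 4. The largest ratio of means, 10.6, was that of Nfu_g_1_010567, which had 3.02, 5.62, 7.15 and 4.86 RPM in wild fish 3, 5, 7 and 11 and 0.59, 0.52, 0.48 and 0.35 RPM in captive fish 1 to 4. Nfu_g_1_021198 was similar in shape at a higher level, with 16.6, 18.1, 19.3 and 12.1 RPM in wild fish 3, 5, 7 and 11 and 1.95, 2.55, 2.41 and 2.64 RPM in captive fish 1 to 4. In these 4 genes the captive level was low but measurable in each library, and the wild level was not carried by any 1 fish.

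At the other end were genes with small differences and little spread. Nfu_g_1_004386, the shortest transcript of the 23 at 372 bases, had 11.1, 10.9, 11.6 and 10.7 RPM in wild fish 3, 5, 7 and 11, against 4.74, 5.10, 3.94 and 4.65 RPM in captive fish 1 to 4. Its wild CV of 3.34% was the smallest of the 23 and below that of read counting. Nfu_g_1_012547 had 9.19, 9.11, 8.87 and 10.2 RPM in wild fish 3, 5, 7 and 11, against 4.15, 3.45, 4.02 and 4.17 RPM in captive fish 1 to 4, and its ratio of means of 2.37 was the lowest of all. Nfu_g_1_015213 had 28.9, 25.1, 26.3 and 27.0 RPM in wild fish 3, 5, 7 and 11, against 5.67, 9.74, 9.08 and 10.2 RPM in captive fish 1 to 4, so that here the captive fish varied more than the wild fish. Nfu_g_1_019491 and Nfu_g_1_004807 were also even among wild fish, with wild values of 9.11 to 10.8 RPM and 8.25 to 9.93 RPM against captive values of 3.06 to 4.34 RPM and 2.45 to 4.03 RPM.

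Other members differed strongly between wild fish. Nfu_g_1_001735 had 8.04, 11.2, 7.01 and 3.82 RPM in wild fish 3, 5, 7 and 11, a range of 2.93-fold, against 0.93, 1.12, 1.04 and 1.04 RPM in captive fish 1 to 4. For this gene the CV was 40.3% in wild fish and 7.66% in captive fish, which were nearly equal. Nfu_g_1_006631, the longest transcript of the 23 at 5850 bases, had 2.30, 5.26, 1.99 and 2.92 RPM in wild fish 3, 5, 7 and 11, against 0.59, 0.90, 0.32 and 0.35 RPM in captive fish 1 to 4. Like *SIMC1* and Nfu_g_1_001735 it was highest in wild fish 5. Nfu_g_1_019584 had its highest value in wild fish 11, with 26.2, 17.8, 32.0 and 36.9 RPM in wild fish 3, 5, 7 and 11 and 4.99, 4.87, 5.95 and 6.81 RPM in captive fish 1 to 4. The remaining 6 genes had wild means of 1.69 to 5.98 RPM and captive means of 0.17 to 2.03 RPM.

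Nfu_g_1_014956 had the lowest captive level, with 2.08, 0.85, 2.48 and 1.53 RPM in wild fish 3, 5, 7 and 11, against 0.17, 0.07, 0.24 and 0.21 RPM in captive fish 1 to 4. In reads these are 29, 12, 36 and 22 in the wild libraries and 2, 1, 3 and 3 in the captive libraries. The ratio of its summed reads, scaled by library totals, was 10.0 with an exact 95% interval of 5.08 to 22.6, which covers counting error only. In 8 of the 23 genes at least 1 captive library had fewer than 10 reads, and the size of their ratios is correspondingly uncertain.

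Over the 23 genes the ratio of the wild to the captive mean ran from 2.37 to 10.6 with a median of 5.69. It was above 5 in 12 genes, between 3 and 5 in 6 and below 3 in 5. The lowest wild over the highest captive value had a median of 2.51 and a range of 2.05 to 6.97. The median log2 fold change was 2.46, against 0.04 over the 19517 genes tested, those with at least 1 read in every library. All 23 had reads in every library and all 23 were called higher in wild fish by edgeR's quasi-likelihood test at an adjusted p under 0.05, as were 19.8% of the genes tested. Since the rule used the same contrast, nothing is read from that count. Over all genes, 41.6% of those tested differed in either direction.

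Members were mostly weakly expressed. The wild mean was at least 10 RPM in 8 genes, between 5 and 10 RPM in 8 and below 5 RPM in 7, with a median of 7.51 RPM, and the captive mean had a median of 1.97 RPM and was below 1 RPM in 9 genes. Per transcript length the median wild level was 5.48 RPKM, against 8.11 RPKM for all genes with a wild mean of at least 1 RPM. The median captive level of the members was 1.04 RPKM, against 8.51 RPKM for those genes. The rule itself favours low captive values, so nothing is read from this difference. All 23 together summed to 466, 533, 380 and 480 RPM in wild fish 3, 5, 7 and 11, against 76.8, 92.9, 95.1 and 89.8 RPM in captive fish 1 to 4. Much of this sum came from Nfu_g_1_018181, which had the highest RPM in each wild library. In whole brain tissue a change in the number of cells that express a gene and a change in RNA per cell cannot be told apart.

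**Figure D2:**
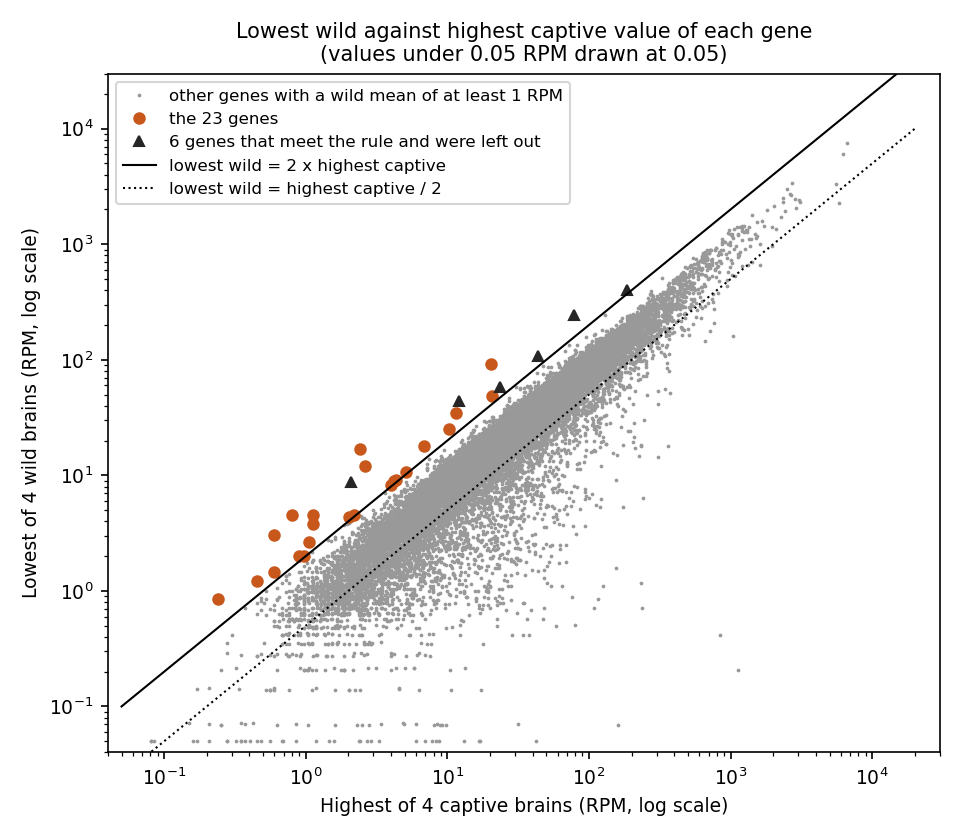
Lowest of the 4 wild values against highest of the 4 captive values (RPM, log axes) for each gene with a wild mean of at least 1 RPM, with the 23 genes as filled circles, the 6 genes left out as triangles and all other genes in grey. The 23 circles and the 6 triangles lie above the solid line of a 2-fold gap. No grey point can lie there, since the grey genes did not meet the rule. The dotted line marks a lowest wild value equal to the highest captive value divided by 2. It is not the same rule turned round, which sets the lowest captive against the highest wild value. A single low wild or high captive fish can take a gene under it.

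The rule was rarely met. Of the 17533 genes with a wild mean of at least 1 RPM, 23.7% had every wild value above every captive value, but only 29 (0.165%) did so by more than 2-fold. The same rule turned round, with the lowest captive over the highest wild value, was met by 732 of 17710 genes (4.13%). Both directions also differed in how often a 2-fold difference of the means held in every brain. The wild mean was more than 2 times the captive mean in 519 genes, and 29 of them (5.59%) met the rule. Of the other 490, the groups did not overlap in 229 and did in 261. In the opposite direction 1566 genes had a captive mean more than 2 times the wild mean, and 732 of them (46.7%) met the turned rule. The 519 genes had a median wild mean of only 3.79 RPM. The 732 genes had a median captive mean of 16.0 RPM, but these had already met the turned rule. The 2 medians are therefore not of sets cut alike, and the level of the 1566 genes was not summarised. Counting error weighs more at low levels, and its part in the 2 shares was not tested. The imbalance of 29 against 732 genes was of similar size on other scales. It was 29 against 754 genes after TMM scaling, 27 against 762 with DESeq2 size factors and 30 against 715 with upper quartile scaling.

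The border of the set is narrow. Just inside the 2-fold limit were Nfu_g_1_010024 and Nfu_g_1_004807, both with a lowest wild value 2.05 times the highest captive value, and Nfu_g_1_003517 at 2.095 times. Just outside were Nfu_g_1_021940 at 1.99, Nfu_g_1_014538 at 1.96 and Nfu_g_1_021745 at 1.95 times. At the floor of 1 RPM the nearest members had wild means of 1.69, 1.73 and 1.95 RPM, and the nearest genes outside had 0.88, 0.85 and 0.81 RPM. Among named genes the closest to entering was *ITM2C*, which encodes a membrane protein of the BRICHOS family, with 246, 366, 347 and 349.9 RPM in wild fish 3, 5, 7 and 11 and 105, 112, 129 and 100.2 RPM in captive fish 1 to 4. Its lowest wild value, that of wild fish 3, was 1.90 times its highest captive value. With a fold of 1.5 in place of 2 the set grew to 131 genes and with a fold of 3 it shrank to 8, among them *NR4A1* but neither *ATF3* nor *SIMC1*. Each fish left out added genes, since fewer values have to clear the gap. Without wild fish 3, 5, 7 or 11 the set held 37, 41, 40 or 37 genes. Without captive fish 1, 2, 3 or 4 it held 37, 32, 41 or 35 genes. All 23 were always among them, since leaving out a fish cannot narrow the gap of a member.

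Members did not follow a single wild fish. Wild fish 3, 5, 7 and 11 had the highest of the 4 wild values in 5, 7, 4 and 7 of the 23 genes, and the lowest in 4, 7, 6 and 6. Over all genes with a wild mean of at least 1 RPM each wild fish was the highest in 24.3% to 26.3% and the lowest in 19.3% to 28.5%. The median CV of the members was 21.8% in wild and 21.2% in captive fish, against 10.9% and 9.88% over all genes with a wild mean of at least 1 RPM, a group with a higher median level of 20.6 RPM. The wild CV was more than 2 times that of counting in 11 of the 23 members, against 44.1% of all those genes, and the captive CV was so in 3 members, against 34.9% of all those genes. By this measure *SIMC1*, Nfu_g_1_018181 and Nfu_g_1_008910 spread most among wild fish, with CVs of 15.6, 14.7 and 6.82 times that of counting. The measure rises with the number of reads, and these members had the most wild reads (3926, 9345 and 2889). In plain CV, Nfu_g_1_008910 at 25.4% lay below *ATF3* at 48.6%. The few captive reads of most members likewise lower the measure in captive fish.

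Transcript length was not used by the rule. The median was 1056 bases (quartiles 618 and 2654.5) in the 23 genes, against 2808 bases (quartiles 1400 and 4846) in all genes with a wild mean of at least 1 RPM. Transcripts under 1000 bases made up 11 of the 23 (47.8%), against 16.2% of all those genes and 13.9% of the 732 genes that met the turned rule, whose median was 2508 bases. All 11 short members were genes without a symbol. The 3 named genes were longer, with 1360 bases for *ATF3*, 3165 for *SIMC1* and 4090 for *NR4A1*. The 6 genes left out, all with a symbol, are missing from the 23, while no gene was left out of the groups set beside them. The shares are therefore not of sets cut alike. These counts are a description of a small set, in which genes are not independent replicates. Among all genes tested the median log2 fold change was 0.14 below 1000 bases, 0.09 from 1000 to 3000 bases and -0.03 at 3000 bases or more. In the same order 22.6%, 22.7% and 16.2% were called higher in wild fish, and 13.7%, 19.4% and 27.0% lower. The share called higher was thus alike on both sides of 1000 bases.

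**Figure D3:**
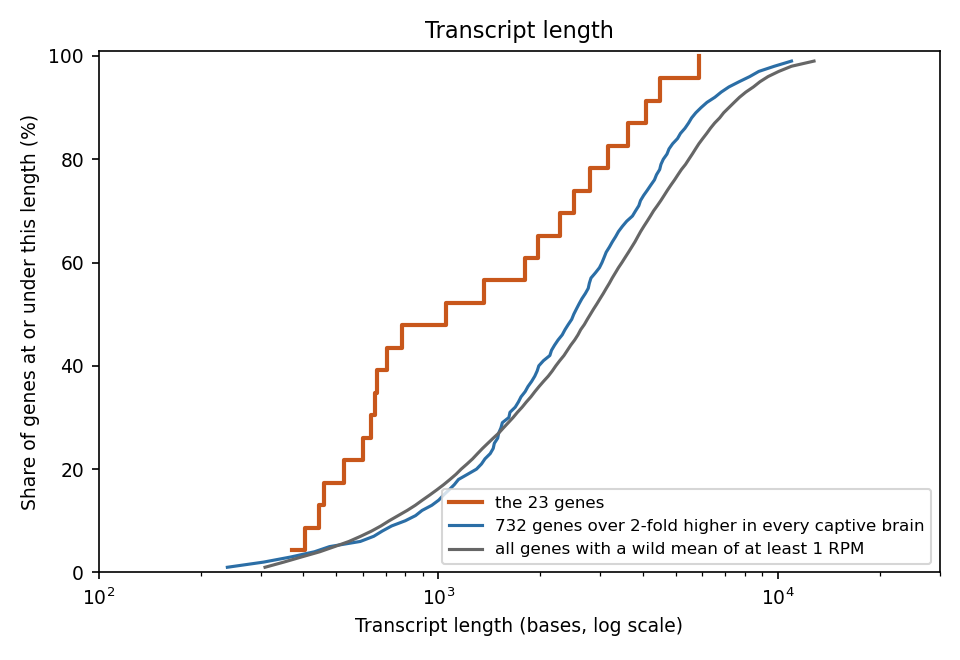
Cumulative share of genes (%) by transcript length (bases, log axis) for the 23 genes, for the 732 genes more than 2-fold higher in every captive brain and for all genes with a wild mean of at least 1 RPM. The line of the 23 genes reaches 47.8% at 1000 bases, where the line of all genes is at 16.2%. The 6 genes left out are missing from the line of the 23 only.

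*NR4A1* and *ATF3* were set beside the other immediate early genes, from a list of 48 symbols of which 26 had a gene in the test. Of the 31 genes with these symbols, 23 rose in wild fish, 0 fell and 8 stayed above the threshold (edgeR's quasi-likelihood test, adjusted p under 0.05 over all genes), with a median log2 fold change of 1.05 against 0.04 over all genes tested. Genes with a symbol were called more often than others, since 32.5% of the 7344 tested genes with a symbol were higher in wild fish and 33.4% lower, against 19.8% higher over all genes tested. DESeq2 gave the same counts of 23 and 0. The gene copy GADD45G Nfu_g_1_018296 was lower at an unadjusted p under 0.05, and without wild fish 5 or without wild fish 11, 1 gene passed as lower. Of the 31 genes, 9 have their name only through a table of the study that was chosen partly on these libraries, so that they are not independent evidence of a direction. Apart from *NR4A1*, *ATF3* and the 4 genes left out, 25 genes remain, of which 17 rose, 0 fell and 8 did not pass, with a median log2 fold change of 0.77. In 16 of these 25 genes the groups did not overlap and wild was higher, against 33.3% of genes with a symbol and 23.7% of all genes with a wild mean of at least 1 RPM, and none came closer to the rule than *DUSP5*, whose lowest wild value was 1.79 times its highest captive value.

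*DUSP5*, a phosphatase that inactivates ERK, averaged 82.7 ± 5.46 RPM in wild and 37.0 ± 5.64 RPM in captive fish (SD, n = 4 each), and rose by 1.13 on the log2 scale (SE 0.11, adjusted p = 2.7e-05). *JUND*, a partner of FOS in the AP-1 transcription factor, averaged 103 ± 13.3 RPM in wild and 48.1 ± 3.59 RPM in captive fish, and rose by 1.07 on the log2 scale (SE 0.10, adjusted p = 2.5e-05). *EGR1*, the zinc finger factor with the most reads of the list, had 295, 248, 184 and 119.8 RPM in wild fish 3, 5, 7 and 11, against 54.7, 67.3, 58.9 and 64.3 RPM in captive fish 1 to 4. It rose by 1.76 on the log2 scale (SE 0.23, adjusted p = 0.00025) and fell short of the rule through wild fish 11. Without this fish *EGR1* was among the genes that met it. *NR4A3*, the relative of *NR4A1* in this list, had 19.6, 33.4, 41.4 and 76.6 RPM in wild fish 3, 5, 7 and 11, against 24.6, 30.9, 30.2 and 27.0 RPM in captive fish 1 to 4. Its groups overlapped and it did not pass the test (log2 fold change 0.58, SE 0.33, adjusted p = 0.19). The value was 0.13 without wild fish 11, and without wild fish 3 it passed, with 0.82 and an adjusted p = 0.032. Wild fish 11, the highest in *NR4A3*, was the lowest in *EGR1*.

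**Figure D4:**
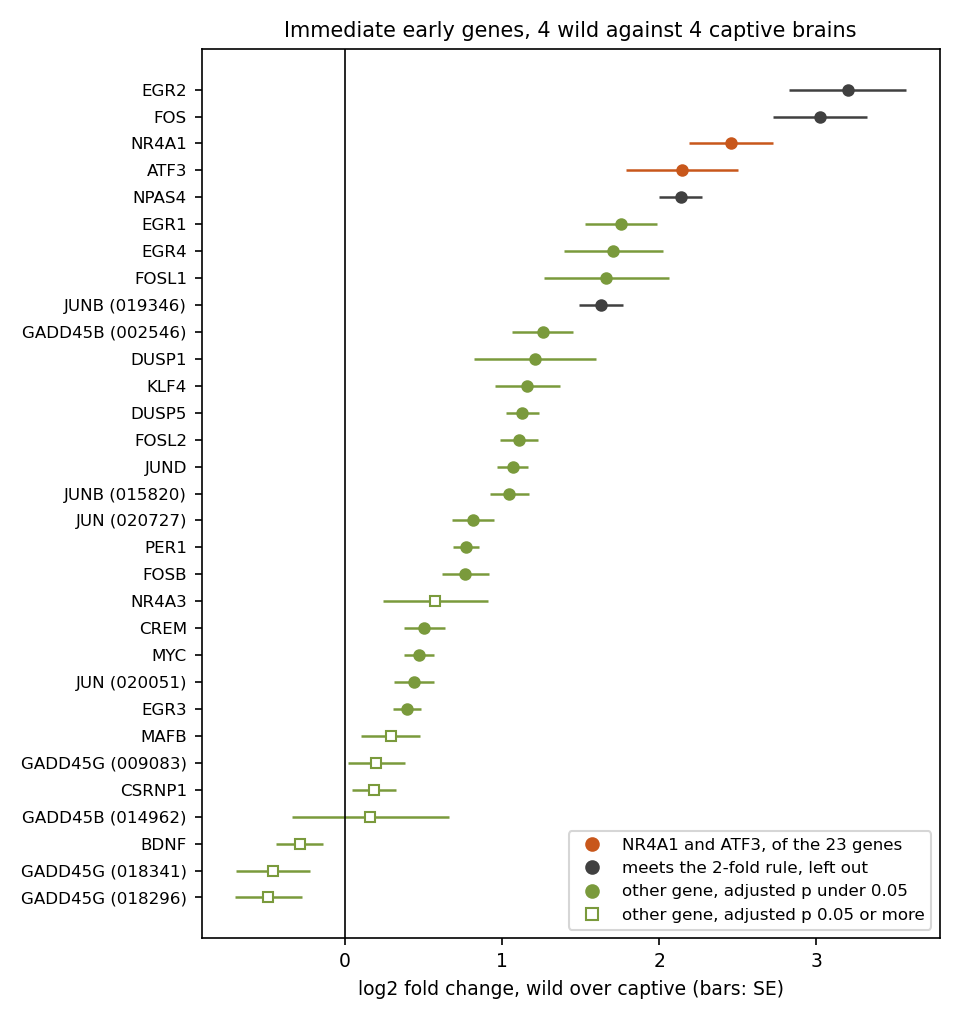
Log2 fold change of wild over captive fish (x axis, bars are SE, 4 fish a group) of the 31 immediate early genes tested, with *NR4A1* and *ATF3* and the genes left out marked in their own colours and open squares for genes with an adjusted p of 0.05 or more. Copies of a symbol carry the end of their identifier. *NR4A1* and *ATF3*, at 2.46 and 2.14, come after *EGR2* and *FOS* only. These genes all met the 2-fold rule, so their high rank follows from how they were chosen.

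Genes of the amino acid stress response, in which *ATF3* acts, and of the unfolded protein response did not move in 1 direction. Of 20 genes of the amino acid stress response and of the unfolded protein response, which adjust protein synthesis and folding, 8 rose and 5 fell at an adjusted p under 0.05 and 7 did not pass, with a median log2 fold change of -1.6e-05 against 0.04 over all genes tested. The share called in either direction was 65.9% over all tested genes with a symbol and 41.6% over all genes tested, and 7 of the 20 genes are named only through the table chosen partly on these libraries. The count that rose was 5 without wild fish 7 or without captive fish 4. *ATF4*, the activator of this response, had 389 ± 17.6 RPM in wild and 257 ± 13.1 RPM in captive fish (log2 fold change 0.57, SE 0.05, adjusted p = 3.1e-05), and *XBP1*, a factor of the unfolded protein response, rose by 0.40 (SE 0.05, adjusted p = 3.0e-04). The chaperones of the endoplasmic reticulum *CANX* and *HYOU1* had log2 fold changes of -0.48 (SE 0.07, adjusted p = 0.00051) and -0.29 (SE 0.05, adjusted p = 0.0015). Of 37 heat shock protein and cochaperone genes, 2 of them left out of the 23, 20 rose, 7 fell and 10 did not pass (median 0.18), and 13 are named only through that table. Of 14 genes of the glucocorticoid response, 6 rose, 6 fell and 2 did not pass (median -0.19), and 7 are named only through it. These counts stand beside the 65.9% of all tested genes with a symbol that were called, 32.5% as higher in wild fish and 33.4% as lower. All 6 neuropeptide genes tested rose, with a median of 0.68, but 5 of them have a name only through the same table and are not independent evidence of a direction. Among them were *NPY*, which stimulates feeding in fish and mammals, with 65.9 ± 7.6 RPM in wild and 29.9 ± 6.76 RPM in captive fish, and *SST*, which encodes somatostatin, with 17.8 ± 1.28 RPM in wild and 10.7 ± 1.08 RPM in captive fish (SD, n = 4 each). None of *NR4A1*, *ATF3* and *SIMC1* was on these 4 lists, and the 20 members without a symbol could not be matched to any list.

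None of the 3 members with a symbol was on the 13 lists of cell type markers, to which the other 20 could not be matched. The presence of neuronal RNA was checked on 20 genes of mature neurons, which cannot show that a brain was whole. Their summed levels were 4761 to 5132 RPM in wild and 5618 to 6120 RPM in captive fish. These sums did not overlap, with 3 genes higher, 11 lower and 6 that did not pass. Several other cell type lists also differed between the groups in summed level without overlap. Of all tested genes with a symbol, 32.5% were higher in wild fish and 33.4% lower. The 14 genes of radial glia and astrocytes summed to 5493 to 7343 RPM in wild and 3902 to 5171 RPM in captive fish, with 6 genes higher and 4 lower. The 13 genes of newborn neurons summed to 2043 to 2173 RPM in wild and 1702 to 1868 RPM in captive fish, with 5 genes higher, 2 lower and 6 that did not pass, and a median log2 fold change of 0.05. The 6 genes of erythrocytes summed to 112 to 139 RPM in wild and 177 to 221 RPM in captive fish, with 1 gene higher and 4 lower. The 7 genes of endothelium and pericytes summed to 292 to 346 RPM in wild and 366 to 374 RPM in captive fish. The 2 genes of lymphocytes and granulocytes summed to 58.5 to 68.2 RPM in wild and 46.2 to 56.0 RPM in captive fish. The 2 genes of eye and pineal summed to 38.0 to 44.9 RPM in wild and 24.4 to 26.9 RPM in captive fish. Microglia had only *MARCO* in the test, with 4.17 to 7.97 RPM in wild and 2.03 to 3.70 RPM in captive fish. *GH1*, the growth hormone gene and the pituitary marker in the test, was high in some brains of both groups, with 3222, 1832, 0.69 and 0.42 RPM in wild fish 3, 5, 7 and 11 and 837, 1.12, 0.72 and 722 RPM in captive fish 1 to 4. The part of these differences in the levels of the 23 genes was not tested.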

How the data were processed

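Directional poly(A) libraries were made by the authors, who used bcl2fastq 2.20.0.422 for the conversion of reads, TopHat2 2.1.0 for alignment to a hard-masked killifish genome and featureCounts 1.6.5, set to the reverse strand, for counting. The deposited counts are whole reads per gene. The deposited RPM equal these counts over the library totals, times 1000000 (largest difference 5.0e-12), and the deposited RPKM divide RPM by transcript length in kilobases. Transcript length was taken from the ratio of RPM to RPKM. Replicates were not pooled, and replicate libraries differed by more than counting error (chi-square per gene 7.44 to 16.3). The labels do not say how the 4 fish of a group were chosen. The paper states that wild fish for dissection were picked at random from the catch. The p-values set the difference between the groups against the spread between these fish.

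The rule was applied to RPM. Wild and captive fish were compared across 19517 genes that had 1 count or more in every library by edgeR 4.0.16 (TMM, quasi-likelihood F-test, Benjamini-Hochberg adjusted p under 0.05) in R 4.3.3, with figures in Python 3.11.15 and matplotlib 3.10.9. The SE of a log2 fold change was derived from this test, as its absolute value over the square root of F. The common biological coefficient of variation was 0.16. The scripts were tested on simulated data. Alternatives were DESeq2 1.42.0, limma-trend (limma 3.58.1) on log2(RPM + 0.5), other size factors, other filters, other folds and floors of the rule, and leaving out each fish. The members and the gene lists were chosen with earlier results of these data known. The lists were written from general knowledge and all copies of a symbol count. Lists of further pathways were counted as well and are not described above. Among them, 3 of 28 genes of neuronal ion channels were called higher and 22 lower in wild fish. For cell cycle and DNA replication, 16 of 37 genes were called higher and 2 lower.

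Symbols came from identifier and human gene name columns of the study's supplementary tables, which name 7368 genes of the table in this way. No other gene names were used. Named genes were all members with a symbol, the 2 unnamed members with the most wild reads, the genes next to the limits of the rule, and from the lists those with the smallest p or the most reads. Other unnamed members, *NR4A3*, *ITM2C*, *GADD45G*, *DNAJA2* and the cell type examples were named after their values were seen. Sequences and coordinates of these genes were not analysed here.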

Additional observations from a re-analysis of the deposited data

Results flagged for a closer look

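In 35 genes the 4 fish of each group were checked for a fish that stood apart from the other 3, and 4 of 70 groups had such a fish, about as many as chance gives (1 in 20). *SIMC1* was at 120.7 RPM in wild fish 5, against 48.7 to 55.9 RPM in the other wild fish. *NR4A1* was at 5.76 RPM in the same fish, against 4.51 to 4.67 RPM in the other wild fish, a gap that is within counting error. *JUND*, which is not a member, was at 53.5 RPM in captive fish 2, against 46.1 to 46.5 RPM in the other captive fish. *ITM2C*, just outside the rule, was at 245.7 RPM in wild fish 3, against 347 to 366 RPM in the other wild fish.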

How the results depend on the processing

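All counts of this paragraph leave out the same 6 genes as the main set. The number of genes that met the rule was then 23 on the TMM scale, 21 with DESeq2 size factors, 24 with upper quartile scaling and 16 with a floor of 5 RPM, which removes *NR4A1* and *ATF3*. It was 131 with a fold of 1.5, 8 with a fold of 3, 48 without a floor and 13 with 0.5 RPM added to each value, a setting that removes 10 genes without a symbol. Leaving out 1 fish gave 32 to 41 genes. All 23 were called higher in each alternative. Of 322 alternative log2 fold changes of members, 309 moved by less than the spread between fish, 13 by more and 0 changed sign. Of the 13, 11 came from limma-trend on log2(RPM + 0.5). The rule used the same contrast, so nothing is read from the calls of members or the 0 changes of sign. Of 1343 values of other genes of the lists, 65 lost and 15 gained their call, and *DNAJA2* (Nfu_g_1_021999), at -0.01 with all fish, lay between -0.086 and 0.14 when 1 fish was left out, with 0.14 without captive fish 1. No paired analysis was possible because wild and captive fish carry different numbers. Most members have few captive reads, which limits how well the size of their difference is known.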
